A study of Mus musculus with 9 samples.

Results

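The genes described here encode 9 transcription factors and cofactors known from the development or upkeep of the inner ear, and were chosen by symbol: Pou4f3, Gfi1, Lhx3, Barhl1, Ikzf2, Gata2, Gata3, Esrrb and Eya1. All 9 had a row among the 25579 gene symbols of the second deposited table, which held treated and homozygous libraries, and 2 of them, Gata2 and Eya1, also had a row among the 1410 symbols of the first table, which held homozygous and WT libraries. RNA came from the cochlear membranous labyrinth, the soft tissue inside the bony cochlea, of mice at postnatal day 28. Treated mice carried hMPZL2Q74X/Q74X and had received AAV-ie-ABE8eWQ-SpRY:sgRNA3, an adeno-associated viral vector for an adenine base editor with its guide, by way of the round window membrane on postnatal day 2. Homozygous mice carried hMPZL2Q74X/Q74X, a humanized MPZL2 gene with a nonsense variant in both copies, and are not labelled as treated. WT mice were Mpzl2 WT. The treated and homozygous groups thus shared the Q74X allele, and each group had 3 libraries. The promoter driving the editor, the cells that took up the vector, any sham injection and the number of animals behind a library are not given in the labels. The labels call the libraries biological replicates but name no separate animals, so p-values measure the spread between these samples.

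POU4F3 is a POU-homeodomain factor without which hair cells, the sensory cells of the cochlea, fail to mature and die. GFI1, LHX3 and BARHL1 act in hair cells at or after that step, and IKZF2, also called Helios, is needed for the functional maturation of outer hair cells, which amplify sound. GATA2 and GATA3 are zinc finger factors that bind GATA sequences; GATA3 acts in the otic epithelium and the auditory neurons, and both also act in blood and immune cells, GATA2 in blood progenitors, mast cells and endothelium. ESRRB is an orphan nuclear receptor of the marginal cells of the stria vascularis, the epithelium that secretes the potassium-rich endolymph. EYA1 is a transcriptional cofactor with phosphatase activity, and its loss stops inner ear formation in mice.

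The promoter windows of Gata2 and of its paralog Gata3 are shown because Gata2 was the gene of the set whose difference passed the test in both comparisons, while Gata3, analysed in the second table alone, did not pass. A window runs from 250 bases before to 50 bases after an annotated start, and the sequences are those of RefSeq on build GRCm38.p6, written 5′ to 3′ on the gene's strand. Capitals mark the E-box CANNTG and the GATA site, spelled AGATAA or alternatively AGATAG, as well as TGATAA or alternatively TGATAG, each searched on both strands.
Gata2, first start, chr6:88193641-88193940, plus strand: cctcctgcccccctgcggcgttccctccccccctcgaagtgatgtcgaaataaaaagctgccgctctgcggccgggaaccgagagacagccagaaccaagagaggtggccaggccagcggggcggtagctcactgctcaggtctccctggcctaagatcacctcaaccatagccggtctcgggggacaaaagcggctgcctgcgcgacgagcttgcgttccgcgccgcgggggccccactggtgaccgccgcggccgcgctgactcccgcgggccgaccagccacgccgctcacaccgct
Gata2, second start, chr6:88198414-88198713, plus strand: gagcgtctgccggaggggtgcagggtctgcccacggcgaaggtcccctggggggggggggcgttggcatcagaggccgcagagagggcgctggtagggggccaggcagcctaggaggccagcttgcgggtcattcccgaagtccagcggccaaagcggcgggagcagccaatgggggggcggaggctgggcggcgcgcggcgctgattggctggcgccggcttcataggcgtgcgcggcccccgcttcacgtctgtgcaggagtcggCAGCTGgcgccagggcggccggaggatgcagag
Gata3, chr2:9878551-9878850, minus strand: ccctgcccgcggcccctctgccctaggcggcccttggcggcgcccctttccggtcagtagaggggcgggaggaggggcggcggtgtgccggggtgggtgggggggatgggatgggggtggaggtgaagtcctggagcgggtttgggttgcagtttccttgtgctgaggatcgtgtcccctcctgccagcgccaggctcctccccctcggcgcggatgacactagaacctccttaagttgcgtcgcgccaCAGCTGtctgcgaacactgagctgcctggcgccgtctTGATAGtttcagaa
Neither Gata2 window held a GATA site, and the second held 1 E-box. The Gata3 window held 1 E-box and 1 GATA site. Among 32851 windows of the same length, 72.3% held an E-box and 29.8% held a GATA site. GC content was 69.3% and 73.7% in the Gata2 windows and 67.3% in the Gata3 window, against a median of 52.7% over all windows. Of the 9 genes, 6 had windows in the table, 11 in all.

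The deposited values were read as TPM, a transcript level scaled by transcript length and library total, so that levels of different genes can be set side by side. No file header names the unit, which was inferred from the nearly equal library sums of the second table and from the use of kallisto, and the unit of the first table, which holds selected genes, was taken to be the same. TPM keeps no sequencing depth, and the depth of the libraries is unknown. Library sums in the second table lay between 995747 and 996703 TPM. Treated libraries 1 and 2 were nearly the same. Among genes at 1 to 5 TPM, their log2 ratio had a robust SD of 0.0695, against 0.869 to 1.09 for pairs of homozygous libraries and 1.83 for treated libraries 1 and 3. Since this difference was smaller than the noise of any other replicate pair, their TPM was averaged and entered as 1 sample, which leaves n = 2 for the treated group. Mitochondrially encoded genes took 2.17%, 2.22% and 6.16% of the TPM in treated libraries 1, 2 and 3, against 13.6%, 10.7% and 13.4% in the homozygous libraries. Hair cell markers Myo7a, Otof and Slc26a5 were at 9.31 TPM or more in every library, and the marginal cell markers Kcne1 and Kcnq1 at 29.2 TPM or more. Markers of forebrain neurons, a cell type foreign to the cochlea, summed to 1027, 1002 and 39.3 TPM in treated libraries 1, 2 and 3 and to 27.6, 43.6 and 32.0 TPM in the homozygous libraries. Mpzl2 itself had 5.64, 5.62 and 16.3 TPM in treated libraries, against 17.4, 24.0 and 13.1 TPM in homozygous libraries (log2 fold change -0.80, limma adjusted p = 0.335). In the first table it had 16.7, 23.2 and 12.5 TPM in homozygous libraries, against 33.6, 43.9 and 49.0 TPM in WT libraries (log2 fold change -1.25, limma adjusted p = 0.0139). The sources used here do not say whether reads of the humanized allele were counted.

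The 9 genes spanned more than 2 orders of magnitude in level. In the homozygous libraries the order by mean TPM was Eya1, Esrrb, Gata3, Gata2, Ikzf2, Pou4f3, Gfi1, Lhx3 and Barhl1. The ranges over libraries overlapped between Eya1 and Esrrb, between Esrrb and Gata3, between Pou4f3 and Gfi1 and between Lhx3 and Barhl1, so those neighbours did not differ beyond their spread. Eya1, at 124 ± 9.11 TPM (SD, n = 3), had a higher homozygous mean than 94.7% of the symbols in the table. Esrrb was above 92.7%, Gata3 above 92.5%, Gata2 above 79.3% and Ikzf2 above 66.6%. The hair cell factors were low in this whole-tissue RNA: Pou4f3 was above 45.7%, Gfi1 above 41.5%, Lhx3 above 32.3% and Barhl1 above 25.7% of symbols. In the treated samples the order of the means was the same except that Esrrb, at 182 TPM, was above Eya1, at 168 TPM, with overlapping ranges. Neighbouring ranges there were apart only between Gata3 and Gata2 and between Gata2 and Ikzf2.

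The genes also differed in how evenly they were expressed among libraries of 1 group. In the homozygous libraries the highest value was 1.07 times the lowest for Gata2, 1.16 times for Eya1 and for Gfi1, and 4.27 times for Esrrb. In the treated libraries the same ratio was 1.10 for Eya1, 1.32 for Gata2 and 13.2 for Lhx3. In bulk tissue a lower level can come from fewer cells of a type or from less RNA per cell, and these cannot be told apart.

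**Figure D1:**
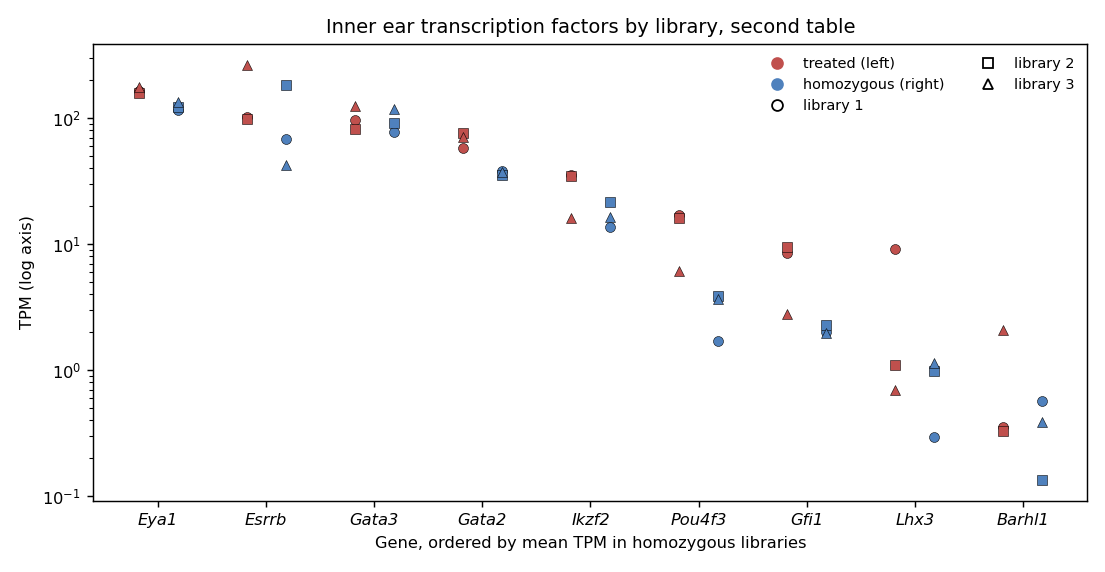
TPM of the 9 genes on a log axis, with genes ordered by their mean in homozygous libraries, treated libraries on the left in red and homozygous libraries on the right in blue, and a marker shape for each library number. Gata2, Eya1, Pou4f3 and Gfi1 are higher in all treated libraries than in all homozygous libraries, and Lhx3 has 1 treated library far above the other 2.

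Between treated and homozygous libraries, 8 of the 9 genes were measured highly enough to be tested, and Gata2 was the gene of the set that passed. Gata2 rose in treated libraries, and 0 of the 8 fell. Over all 17102 tested genes, limma called 4.41% at an adjusted p under 0.05, 3.44% higher and 0.965% lower. At an unadjusted p under 0.05, 3 of the 8 (Gata2, Pou4f3 and Eya1) passed, all with higher levels in treated libraries, against 26.7% of all tested genes. In 4 of the 8, Gata2, Eya1, Pou4f3 and Gfi1, every treated library was above every homozygous library, which held for 28% of all tested genes; 0 of the 8 had every treated library below every homozygous library, which held for 14.8%. All 8 had a log2 fold change above 0, against 61.0% of all genes, but Gata3 was at -0.04 under median-of-ratios scaling and at -0.08 with treated libraries 1 and 2 alone. With treated library 3 alone, 6 of the 8 were above 0, with Lhx3 at -0.06, Ikzf2 at -0.07 and a median of 0.44. The median log2 fold change of the 8 was 0.87 and that of all tested genes 0.20. Median-of-ratios scaling put the median of all genes at 0.02 and that of the 8 at 0.72. The split of calls moved with it, from 589 higher and 165 lower genes to 402 higher and 231 lower, and with mitochondrially encoded genes removed it was 442 higher and 203 lower.

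Of the hair cell factors, Pou4f3 had the largest log2 fold change, which did not pass the test. It was at 16.9, 16.2 and 6.17 TPM in treated libraries 1, 2 and 3, against 1.71, 3.86 and 3.67 TPM in homozygous libraries 1, 2 and 3. The groups did not overlap, and treated library 3 lay closer to the homozygous libraries than the near-identical pair did. The means were 11.4 ± 7.36 TPM in treated samples (SD, n = 2) and 3.08 ± 1.19 TPM in homozygous samples (SD, n = 3). The log2 fold change was 1.51 (standard error 0.53, limma adjusted p = 0.136). It passed with treated libraries 1 and 2 alone, at 2.16 (limma adjusted p = 0.0411), a fit in which the treated group is 1 sample assumed to vary like the homozygous libraries.

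Gfi1, a zinc finger repressor whose expression in hair cells depends on POU4F3, was at 8.44, 9.56 and 2.79 TPM in treated libraries, against 1.99, 2.27 and 1.97 TPM in homozygous libraries. The groups did not overlap, with treated library 3 again the lowest of its group. The log2 fold change was 1.00 (standard error 0.50, limma adjusted p = 0.255), and with treated libraries 1 and 2 alone it was 1.70 (limma adjusted p = 0.0344). GFI1 also acts in blood cell precursors. The granulocyte precursor markers summed to 217, 218 and 241 TPM in treated libraries and 152, 625 and 58.7 TPM in homozygous libraries. Limma called 0 of the 10 tested markers, 1 of which had an unadjusted p under 0.05, and the part of these cells in the Gfi1 values was not tested.

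Lhx3, a LIM-homeodomain factor of hair cells, was at 9.15, 1.10 and 0.693 TPM in treated libraries, against 0.293, 0.978 and 1.15 TPM in homozygous libraries. The groups overlapped, and treated library 1 stood alone. Lhx3 passed the filter on low values with 3 libraries at 1 TPM or more, 2 of them treated. Treated library 1 had 8.32 times the Lhx3 level of its near-identical partner, a gap wider than that of 99.7% of 17259 genes between the same libraries. The log2 fold change was 0.87 (standard error 0.63, limma adjusted p = 0.415). It rested on treated library 1: without that library it was 0.10 (limma adjusted p = 0.905), and with treated library 3 alone it was -0.06. LHX3 is also a pituitary factor. The pituitary markers summed to 3.16, 3.11 and 6.19 TPM in treated libraries and 1.76, 1.56 and 1.60 TPM in homozygous libraries. The part of pituitary tissue in the Lhx3 values was not tested.

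Barhl1, a homeodomain factor needed for the long-term survival of hair cells, was at 0.353, 0.329 and 2.07 TPM in treated libraries, against 0.573, 0.135 and 0.390 TPM in homozygous libraries. It was below 1 TPM in all libraries except treated library 3 and was left out of the test by the filter on low values.

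Ikzf2, the outer hair cell factor Helios, was at 35.4, 34.5 and 16.0 TPM in treated libraries, against 13.5, 21.6 and 16.4 TPM in homozygous libraries. Treated libraries 1 and 2 were above all homozygous libraries, and treated library 3 was among them. The log2 fold change was 0.47 (standard error 0.40, limma adjusted p = 0.490), and with treated library 3 alone it was -0.07. The 9 outer hair cell markers summed to 372, 261 and 312 TPM in treated libraries and 141, 246 and 234 TPM in homozygous libraries. Limma called 0 of the 9, and 3 had an unadjusted p under 0.05, beside 4.41% and 26.7% of all tested genes. IKZF2 is also expressed by regulatory T cells, and T cell markers did move. Their sum was 123, 115 and 179 TPM in treated libraries and 8.64, 10.01 and 5.28 TPM in homozygous libraries. Of 11 tested markers 8 rose, Cd3e among them, beside 3.44% of all tested genes. Among treated libraries, library 3 had the lowest Ikzf2 value and the highest T cell sum, a sum over T cells of all kinds. Library 1 had the highest values of both Ikzf2 and Foxp3. Foxp3, which defines regulatory T cells, was at 2.88, 1.34 and 2.27 TPM in treated libraries and 0.620, 0.0225 and 0.779 TPM in homozygous libraries (limma adjusted p = 0.150). The part of T cells in the Ikzf2 values was not tested.

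Hair cell markers as a list were higher in the same libraries as Pou4f3 and Gfi1. The 30 markers summed to 1175, 1028 and 904 TPM in treated libraries, against 668, 815 and 781 TPM in homozygous libraries. Of 28 tested markers, 1 rose (Ush1c, a scaffold protein of the hair bundle) and 0 fell, beside 3.44% and 0.965% of all tested genes. In 25 the log2 fold change was above 0, beside 61.0% of all tested genes. The median was 0.98, beside 0.20 for all tested genes. The list median was 1.39 with treated libraries 1 and 2 alone and 0.59 with treated library 3 alone. Pou4f3 made up 1.44%, 1.58% and 0.683% of the hair cell marker sum in treated libraries, against 0.256%, 0.473% and 0.469% in homozygous libraries. Per marker sum, every treated library was above every homozygous library, by less in treated library 3 than in the other two. Gfi1 made up 0.719%, 0.929% and 0.309% in treated libraries, against 0.298%, 0.279% and 0.252% in homozygous libraries, with treated library 3 just above them. These percentages depend on Myo6, the largest marker of the sum in homozygous libraries. Myo6 was at 176, 176 and 224 TPM in treated libraries, against 367, 367 and 307 TPM in homozygous libraries. Every treated library was thus below every homozygous library for Myo6, which raises the percentages in treated libraries. Percentages without Myo6 were not computed. The place of treated library 3 above the homozygous libraries on this measure is therefore not shown to hold without Myo6. Markers of forebrain neurons, given above, and of brainstem neurons were also highest in treated libraries 1 and 2. The brainstem markers summed to 48.8, 49.5 and 15.4 TPM in treated libraries and 7.37, 6.29 and 13.1 TPM in homozygous libraries, nearly all of it from Otx2, and 6 of 7 were below 1 TPM in every library. The part of hair cell content or of neurons from the brain in the values of these factors was not tested.

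**Figure D2:**
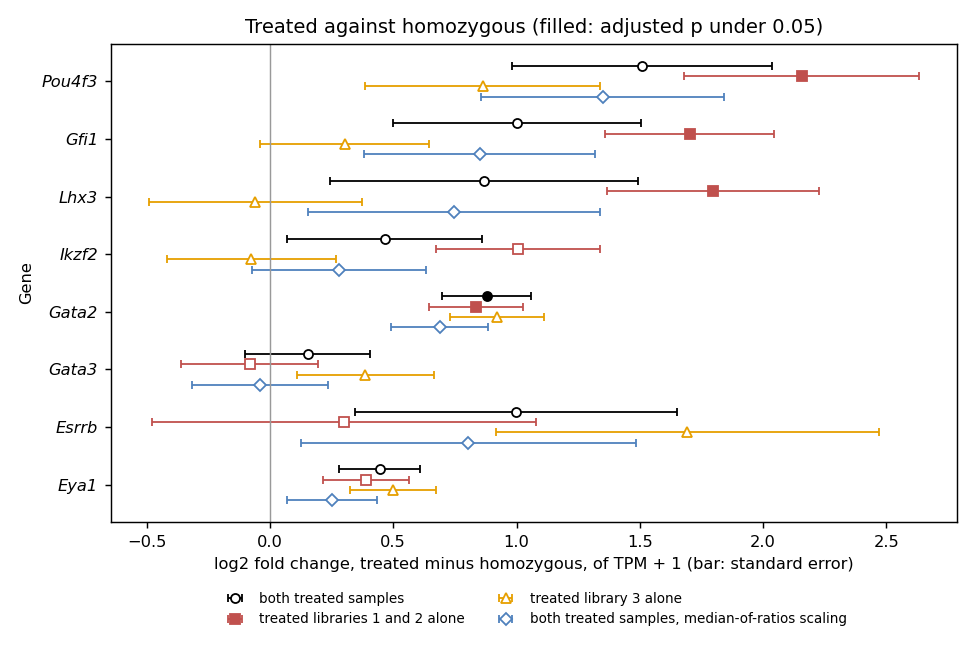
Log2 fold changes of TPM + 1, treated minus homozygous, for the 8 tested genes (x axis), with bars for the standard error and filled symbols for an adjusted p under 0.05, in 4 fits: both treated samples, treated libraries 1 and 2 alone, treated library 3 alone, and median-of-ratios scaling. Pou4f3, Gfi1 and Lhx3 lie far apart between the pair and library 3, at 2.16, 1.70 and 1.80 for the pair, where the Lhx3 value rests on treated library 1, while Gata2 stays between 0.69 and 0.92 in the 4 fits.

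Gata2 rose in treated libraries in this comparison. It was at 57.4, 75.8 and 70.8 TPM in treated libraries 1, 2 and 3, against 38.1, 35.6 and 37.1 TPM in homozygous libraries 1, 2 and 3. The groups did not overlap, the homozygous libraries were nearly equal, and treated library 3 lay between the treated pair. The means were 68.7 ± 2.92 TPM in treated samples (SD, n = 2) and 36.9 ± 1.27 TPM in homozygous samples (SD, n = 3). Its log2 fold change was 0.88 (standard error 0.18, limma adjusted p = 0.0494). The call sat just inside the threshold and was lost in 11 of 16 alternatives, while the log2 fold change over all 16 stayed between 0.69 and 0.97. The 16 count 1 fit 2 times, since treated libraries 1 and 2 alone is also the fit without treated library 3. The call was lost on leaving out any homozygous library or treated library 2 (limma adjusted p = 0.0721 to 0.213). The near-identical treated libraries differed more for Gata2 than for most genes, with a ratio of 0.757 of library 1 to library 2, a gap wider than that of 92.0% of genes.

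The cells in which GATA2 is best known had these marker levels. Endothelial markers summed to 306, 288 and 277 TPM in treated libraries and 233, 257 and 242 TPM in homozygous libraries. Limma called 0 of the 8 tested, and 2 had an unadjusted p under 0.05, beside 4.41% and 26.7% of all tested genes. The median log2 fold change was 0.04, beside 0.20. Gata2 made up 18.8%, 26.3% and 25.6% of that sum in treated libraries, against 16.3%, 13.8% and 15.3% in homozygous libraries, so the groups did not overlap on this measure either. The mast cell markers summed to 49.2, 43.8 and 57.1 TPM in treated libraries and 45.8, 61.7 and 42.2 TPM in homozygous libraries, with limma calling 0 of 2 tested markers and 1 at an unadjusted p under 0.05. Most of each sum was Kit, at 45.2, 39.6 and 44.4 TPM in treated libraries and 43.2, 57.2 and 39.8 TPM in homozygous libraries. The sum thus mainly follows Kit and says little about the other mast cell genes. Of the 7 mast cell genes in the table, Cpa3, Mcpt4, Cma1 and Ms4a2 were listed at 0 in every treated library. In homozygous libraries Cpa3 was at 1.52, 1.30 and 0 TPM, and Mcpt4, Cma1 and Ms4a2 were at 0.660 TPM or less. Hdc, the histamine-forming enzyme, was at 4.05, 4.19 and 9.47 TPM in treated libraries and 0.968, 1.78 and 2.38 TPM in homozygous libraries (limma adjusted p = 0.122), and Tpsb2 was at 3.21 TPM in treated library 3 and at 0.327 TPM or less in the other libraries. Of 8 tested erythroid and megakaryocyte markers, 1 rose: Itga2b, a platelet integrin, at 44.3, 44.4 and 42.5 TPM in treated libraries and 16.8, 12.6 and 11.4 TPM in homozygous libraries. In all, 6 of the 8 had a log2 fold change above 0, beside 61.0% of all tested genes. Pf4 was at 0, 0 and 11.7 TPM in treated libraries and 3.31, 7.66 and 2.12 TPM in homozygous libraries (log2 fold change -0.45, limma adjusted p = 0.815). Gp9, not tested, was at 0 in every treated library and at 1.93, 0.420 and 0.284 TPM in homozygous libraries. The sum of that list was 767, 1008 and 699.5 TPM in treated libraries and 515, 1565 and 159 TPM in homozygous libraries. The part of endothelial, mast and blood cells in the Gata2 values was not tested.

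Gata3 was at 95.9, 82.2 and 124 TPM in treated libraries, against 76.7, 92.0 and 119 TPM in homozygous libraries. The groups overlapped over nearly their whole range. The means were 106 ± 24.5 TPM in treated samples (SD, n = 2) and 95.9 ± 21.4 TPM in homozygous samples (SD, n = 3), with a log2 fold change of 0.15 and a standard error of 0.25 (limma adjusted p = 0.734). GATA3 is also a T cell factor, and of the T cell marker sums given above, treated library 3, the highest for Gata3, had the highest, while homozygous library 3, the highest homozygous library for Gata3, had the lowest. GATA3 is also expressed by supporting cells, whose markers summed to 3613, 3573 and 6066 TPM in treated libraries and 4179, 6322 and 4191 TPM in homozygous libraries, with 1 of 16, Lfng, higher by the test. The part of T cells and of supporting cells in the Gata3 values was not tested. Other annotated genes overlap Gata3. On the same strand, 9230102O04Rik was at 12.2, 15.5 and 0.924 TPM in treated libraries and 0, 3.38 and 0.901 TPM in homozygous libraries. An antisense gene, Gm13256, was at 66.4, 74.7 and 53.8 TPM in treated libraries and 23.0, 43.1 and 16.1 TPM in homozygous libraries. Also on the opposite strand, 4930412O13Rik was at 1.61 TPM or less in treated libraries and 3.93, 2.815 and 5.74 TPM in homozygous libraries. The sources used here do not say whether quantification used strand, and strand would not separate genes of the same strand, so the division of reads and with it the Gata3 level is uncertain. Gfi1, Lhx3, Ikzf2 and Eya1 also overlap other annotated genes. Those of Eya1 had no row, that of Lhx3 was at 0.282 TPM or less, and that of Gfi1 at 2.31 TPM or less. Gm28112, on the strand of Ikzf2, was at 7.48, 8.27 and 6.26 TPM in treated libraries and 2.81, 3.21 and 3.54 TPM in homozygous libraries. How far these genes share reads is not known either.

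Esrrb varied most among the abundant genes of the set. It was at 101, 98.8 and 264 TPM in treated libraries 1, 2 and 3, against 68.4, 182 and 42.6 TPM in homozygous libraries 1, 2 and 3. The groups overlapped, with 1 high library in each, treated library 3 and homozygous library 2. The means were 182 ± 116 TPM in treated samples (SD, n = 2) and 97.6 ± 74.05 TPM in homozygous samples (SD, n = 3), with a log2 fold change of 1.00 and a standard error of 0.65 (limma adjusted p = 0.372). The value was 0.30 with treated libraries 1 and 2 alone and 1.69 with treated library 3 alone.

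The sum of the stria marginal cell markers was high in the same libraries as Esrrb. The 10 markers summed to 1728, 1723 and 3093 TPM in treated libraries, against 1772, 3013 and 1418 TPM in homozygous libraries. Kcne1, a subunit of the potassium channel that secretes endolymph potassium, was at 131, 129 and 397 TPM in treated libraries and 125, 297 and 89.6 TPM in homozygous libraries. Bsnd, the chloride channel subunit barttin, was at 3.59, 3.42 and 14.3 TPM in treated libraries and 2.32, 7.08 and 1.25 TPM in homozygous libraries. Limma called 0 of the 10 markers, and 0 had an unadjusted p under 0.05. Esrrb made up 5.87%, 5.74% and 8.55% of the marginal cell sum in treated libraries, against 3.86%, 6.03% and 3.00% in homozygous libraries. The groups overlapped on this measure as well, and the library with most Esrrb in each group also had most Esrrb per marker sum. The pattern was not particular to marginal cells. Supporting cell marker sums, given above, were also highest in treated library 3, at 6066 TPM, and in homozygous library 2, at 6322 TPM. The part of marginal cell content in the Esrrb values was not tested.

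**Figure D3:**
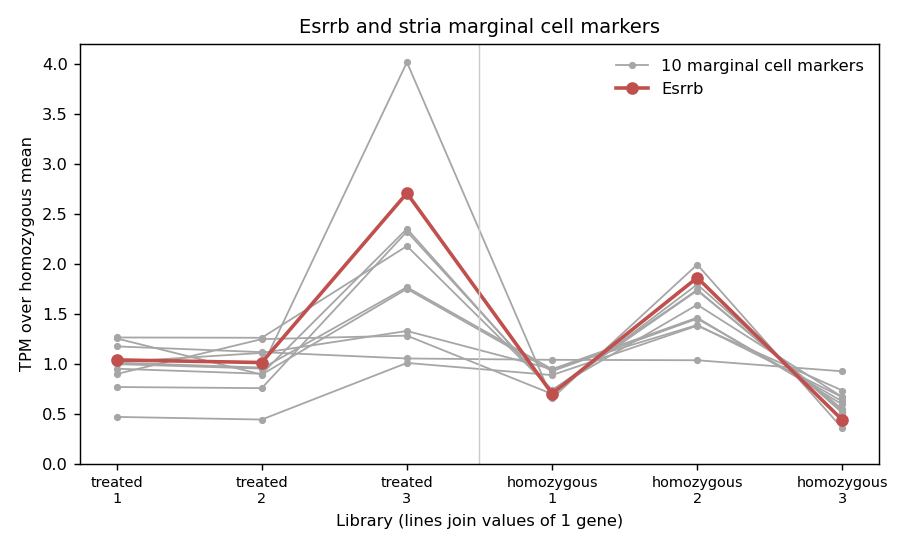
TPM of Esrrb (thick red line) and of the 10 stria marginal cell markers (grey lines), each divided by its own mean over the homozygous libraries (y axis), in treated libraries on the left and homozygous libraries on the right. Esrrb peaks in treated library 3, at 264 TPM, and in homozygous library 2, at 182 TPM, as most of the markers do.

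Eya1 was the most evenly expressed gene of the set in treated libraries. It was at 164, 159 and 175 TPM in treated libraries, against 115, 123 and 133 TPM in homozygous libraries. The groups did not overlap. The means were 168 ± 9.27 TPM in treated samples (SD, n = 2) and 124 ± 9.11 TPM in homozygous samples (SD, n = 3). Its log2 fold change was 0.44 with a standard error of 0.16, which did not pass the test (limma adjusted p = 0.150).

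Homozygous libraries were compared with WT libraries in the first table, where Gata2 and Eya1 are the genes of the set with a row. Gata2 fell in homozygous libraries and Eya1 did not pass the test. The other 7 were not analysed in this comparison. The authors' table holds selected genes: the smallest absolute log2 fold change among its 1348 tested genes was 0.243, so a call there is a description and not independent evidence. Limma called 51.3% of the tested genes, with 17.9% higher and 33.5% lower, 241 and 451 genes, and median-of-ratios scaling turned that split to 465 higher and 216 lower. This comparison shares its homozygous libraries with the comparison of treated libraries, so the results for a gene in both are not independent. The tables give unequal values for the same homozygous libraries, by ratios that differ between genes, and the reason is not known. No test was made between treated and WT libraries.

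Gata2 was at 29.6, 30.1 and 33.2 TPM in homozygous libraries 1, 2 and 3, against 49.1, 56.9 and 61.9 TPM in WT libraries 1, 2 and 3. Every homozygous library was below every WT library, which held for 45.6% of the tested genes of this table; the opposite order, which neither Gata2 nor Eya1 had, held for 31.5%. The means were 31.0 ± 1.92 TPM in homozygous libraries and 56.0 ± 6.45 TPM in WT libraries (SD, n = 3 each). The log2 fold change was -0.83 (standard error 0.14, limma adjusted p = 0.0085), beside a median of -0.36 over all tested genes of the table. The call held in all 12 alternatives, with fold changes between -0.92 and -0.69 and limma adjusted p between 0.00809 and 0.0436. No list of endothelial, mast cell, or erythroid and megakaryocyte markers had a row in this table, so these cells were not analysed in this comparison.

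Eya1 was at 118, 125 and 135 TPM in homozygous libraries, against 87.0, 123 and 95.9 TPM in WT libraries. WT library 2 lay within the homozygous range and the groups overlapped. The means were 126 ± 8.62 TPM in homozygous libraries and 102 ± 18.6 TPM in WT libraries (SD, n = 3 each), with a log2 fold change of 0.32 and a standard error of 0.15 (limma adjusted p = 0.0794). It passed under median-of-ratios scaling, at 0.46 (limma adjusted p = 0.036). Of both genes, 1 had a fold change above 0, beside 46.0% of the tested genes, and 1 had an unadjusted p under 0.05, beside 75.7%.

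The same homozygous libraries did not have the same values in both tables. The second table's Gata2 value was 1.29, 1.18 and 1.12 times the first table's in homozygous libraries 1, 2 and 3, and the Eya1 value was 0.970, 0.985 and 0.982 times. The median ratio over shared genes was 1.16 to 1.17. Some genes differed far more. Dlx1, picked after its values were seen, was at 4.19, 3.33 and 3.67 TPM in homozygous libraries 1, 2 and 3 of the first table. In the second table it was at 0.0637, 0 and 0 TPM in the same libraries. The tables thus differ by more than 1 scaling factor per library.

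**Figure D4:**
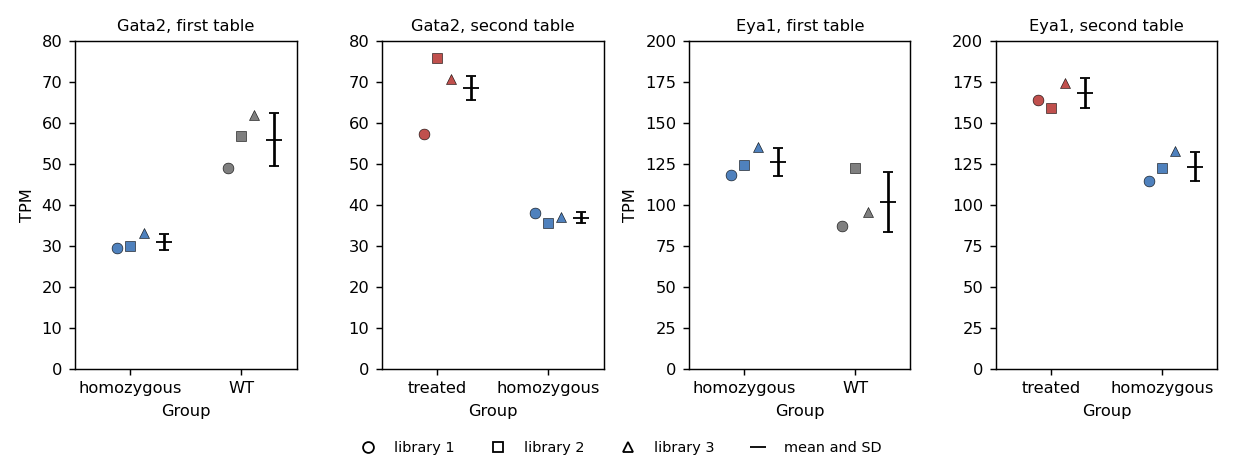
TPM of Gata2 and Eya1 by library on axes from 0, homozygous beside WT libraries in the first table and treated beside homozygous libraries in the second, with bars for the mean and SD, treated libraries 1 and 2 counting as 1 sample. Gata2 is lower in homozygous than in WT libraries (31.0 against 56.0 TPM) and higher in treated than in homozygous libraries (68.7 against 36.9 TPM), while the Eya1 groups overlap in the first table and not in the second.

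Paralogs of the 9 genes were set beside them, since members of a family share conserved domains but often differ in cell type. Of 18 paralogs, 17 had a row in the second table and 12 were tested. None rose and 1 fell, Esrrg, beside 3.44% and 0.965% of all tested genes. An unadjusted p under 0.05 was found for 6, beside 26.7% of all tested genes. Of the 12, 5 had a log2 fold change above 0, beside 61.0%, with a median of -0.11 beside 0.20. Esrrg, the gamma member of the estrogen-related receptors, was at 31.4, 29.7 and 40.9 TPM in treated libraries, against 136, 99.9 and 130 TPM in homozygous libraries. The groups did not overlap, and its log2 fold change was -1.75 (standard error 0.23, limma adjusted p = 0.0186), lost in 4 of 16 alternatives. Esrrb, of the same family, did not pass the test and had a fold change of the other sign. In the first table Esrrg was at 136, 98.3 and 133 TPM in homozygous libraries, against 164, 167 and 150 TPM in WT libraries (log2 fold change -0.40, limma adjusted p = 0.0526).

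Pou4f1, the paralog of Pou4f3 that acts in sensory neurons, was at 12.1, 7.12 and 20.6 TPM in treated libraries, against 79.4, 38.6 and 97.2 TPM in homozygous libraries. The groups did not overlap, and the log2 fold change of -2.17 missed the threshold (limma adjusted p = 0.0548). Markers of spiral ganglion neurons, the auditory neurons, summed to 3119, 2910 and 1765 TPM in treated libraries and 4094, 2462 and 4316 TPM in homozygous libraries, and 2 of 11, Nefl and Nefh, fell. Homozygous library 2 was the lowest homozygous library for both Pou4f1 and this sum. Among treated libraries the order differed, as library 3 was the highest for Pou4f1 and the lowest for this sum. The part of neurons in the Pou4f1 values was not tested. Eya4, a paralog of Eya1 that is also known from inherited deafness, was at 93.7, 87.4 and 101 TPM in treated libraries and 84.7, 109 and 109 TPM in homozygous libraries (log2 fold change -0.07, limma adjusted p = 0.843). In the first table, Ikzf4, of the Ikaros family of Ikzf2, rose in homozygous libraries, with 5.13, 3.75 and 8.07 TPM in homozygous libraries and 2.08, 2.98 and 2.98 TPM in WT libraries (log2 fold change 0.81, limma adjusted p = 0.0469), a call lost in 6 of 11 alternatives.

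**Figure D5:**
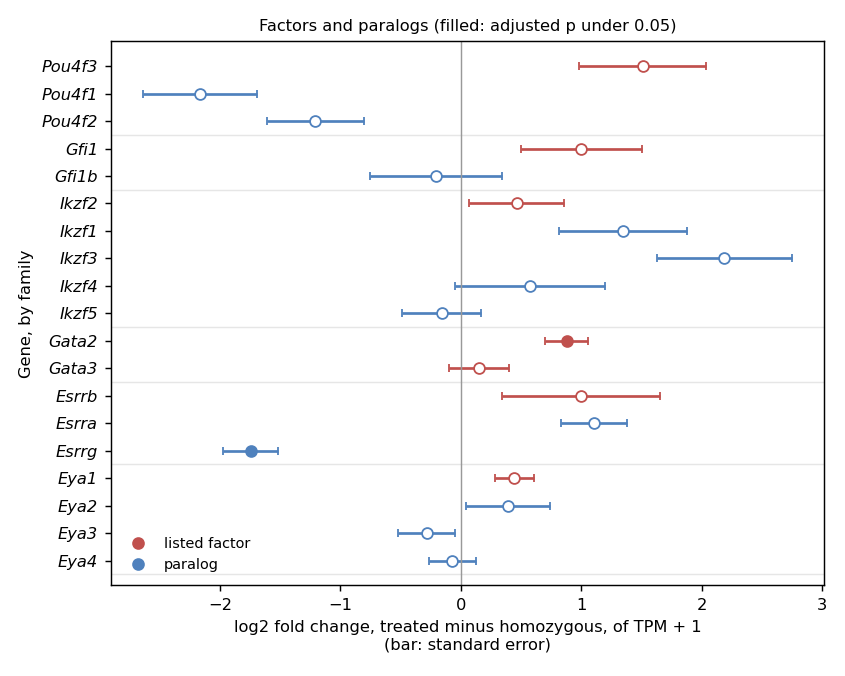
Log2 fold changes of TPM + 1, treated minus homozygous (x axis, bars for the standard error), for the tested genes of the set in red and their tested paralogs in blue, grouped by family, with filled symbols for an adjusted p under 0.05. Pou4f3 and Pou4f1 lie on opposite sides of 0, at 1.51 and -2.17, neither passing the test, as do Esrrb and Esrrg, at 1.00 and -1.75, of which Esrrg passes.

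Of 33 other regulators of the otic lineage, 32 had a row in the second table and 29 were tested. Limma called 0 of the 29 in either direction, beside 4.41% of all tested genes. An unadjusted p under 0.05 was found for 12, beside 26.7% of all tested genes. Their log2 fold changes were above 0 in 22 of 29, beside 61.0% of all tested genes, with a median of 0.64 beside 0.20. Nr2f2, a nuclear receptor, was at 211, 209 and 264 TPM in treated libraries and 214, 197 and 219 TPM in homozygous libraries (log2 fold change 0.17, limma adjusted p = 0.590). Isl1, a LIM-homeodomain factor of the otic epithelium and auditory neurons, was at 71.2, 72.5 and 84.6 TPM in treated libraries and 211, 124 and 263 TPM in homozygous libraries. The Isl1 groups did not overlap, and its log2 fold change was -1.28 (limma adjusted p = 0.0708). Ldb1, a cofactor that binds LIM-homeodomain proteins such as LHX3 and ISL1, was at 153, 160 and 138 TPM in treated libraries and 117, 136 and 162 TPM in homozygous libraries (log2 fold change 0.10, limma adjusted p = 0.785). Of these regulators, 3 had a row in the first table, Prox1, Sox9 and Mitf. Limma called 0 of the 3, and 2 had an unadjusted p under 0.05, beside 51.3% and 75.7% of the tested genes of that table.

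Genes with the most similar pattern were sought for the 3 genes of the set with the widest range, over the 5 samples of the second table and 17511 genes. Likeness was the root mean square difference of log2(TPM + 1) values after centring each gene on its own mean, and a smaller value is more alike. For Esrrb the closest were Knl1 at 0.135, Bsnd at 0.142 and Slc13a5 at 0.182, and 14 genes lay within 0.25. For Pou4f3 they were Dph1 at 0.112, Slc25a22 at 0.113 and Cep112it at 0.121, with 68 genes within 0.25. For Lhx3 they were L3mbtl2 at 0.0572, Acap3 at 0.0993 and Clspn at 0.124, with 134 genes within 0.25. The Lhx3 pattern, and its place among the widest ranges, uses the mean of treated libraries 1 and 2, at 9.15 and 1.10 TPM, and so rests on library 1. All these genes were measured in the same libraries. Of the genes named here, Bsnd was also on the list of marginal cell markers.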

How the data were processed

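RNA of 3 treated, 3 homozygous and 3 WT libraries was sequenced from stranded total RNA libraries, per the labels' protocols. The deposited values were read as TPM from their library sums, with no unit in the file headers; per the submitters' processing notes the authors used kallisto 0.51.0, DESeq with no version given, and build GRCm39. Groups came from titles, since the genotype label counted upward from sample to sample. All columns of per-sample values were mapped to samples.

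Here, values of repeated symbols were summed. Genes at 1 TPM or more in at least 3 libraries entered the tests (1348 and 17102 in the first and second table), run in R 4.3.3 by limma 3.58.1, which fitted group means and a trend of variance on level to log2(TPM + 1). P-values are two-sided, Benjamini-Hochberg adjusted over all tested genes, with a threshold of 0.05. Fold changes on this scale understate changes of low genes. Scripts were tested on simulated data, with the spread of the homozygous libraries for the second table and of the WT libraries for the first. The treated against homozygous design called 13% of genes with a simulated log2 change of 1 and 50% with 2. The homozygous against WT design called 86% and 97%. A gene that did not pass is thus not shown to be unchanged.

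The 9 genes, the gene lists and the averaging of treated libraries 1 and 2 were chosen with earlier results of these data known. Of paralogs and other otic regulators, those that passed and the 3 with the highest homozygous mean are named; of marker lists, sums and counts are given. Individual markers such as Foxp3, Bsnd, Kcne1, Itga2b, Ush1c and the mast cell genes were named for their role or call, after their values were seen. Atoh1 is not analysed here, and the result of 1 other gene is not reported here. Alternatives were another pseudocount, filter, scaling, variance model or treatment of the treated libraries, a replicate block, and leaving out each library.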

Additional observations from a re-analysis of the deposited data

How the results depend on the processing

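Of the 17102 genes of the treated against homozygous comparison, 754 were called. The count was 134 with no filter on low values, 479 with no mean-variance trend, 3563 with treated libraries 1, 2 and 3 as 3 samples, 222 with treated library 3 alone, 2984 with treated libraries 1 and 2 alone, and 63 to 2984 on leaving out single libraries. It was 63, 183 and 70 without homozygous libraries 1, 2 and 3. Of the 9 genes, 1 was called, against 0 with a pseudocount of 0.1, with no filter, with median-of-ratios scaling, with no trend, with mitochondrially encoded genes removed and with treated library 3 alone, 3 with 3 treated samples (Pou4f3, Gata2 and Eya1), 4 with libraries 1 and 2 alone (Pou4f3, Gfi1, Lhx3 and Gata2), and 0 to 4 on leaving out single libraries.

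Gata2 kept its direction in all 16 alternatives and passed in 5. Treated libraries 1 and 2 alone and leaving out treated library 3 are the same fit, with 1 treated sample, which counts 2 times in both numbers. It did not pass with a pseudocount of 0.1 (0.89, limma adjusted p = 0.0537), no filter (0.88, 0.0697 likewise), median-of-ratios scaling (0.69, 0.0971), no trend (0.88, 0.0892), mitochondrially encoded genes removed (0.75, 0.0734) and treated library 3 alone (0.92, 0.0804), and on leaving out single libraries it was 0.77 to 0.97. With 3 treated samples, Pou4f3 was at 1.72 (limma adjusted p = 0.0394) and Eya1 at 0.43 (limma adjusted p = 0.0478). With treated libraries 1 and 2 alone, Pou4f3 was at 2.16, Gfi1 at 1.70, Lhx3 at 1.80 (limma adjusted p = 0.0484) and Gata3 at -0.0825. With treated library 3 alone, Lhx3 was at -0.059 and Ikzf2 at -0.075, and Gata3 was at -0.0404 under median-of-ratios scaling. On leaving out single libraries the range was 1.24 to 2.16 for Pou4f3, 0.96 to 1.70 for Gfi1, 0.10 to 1.80 for Lhx3 and -0.0825 to 0.32 for Gata3. Esrrb did not pass in any of 16 alternatives (limma adjusted p = 0.162 to 0.797). At a mean of at least 5 TPM Gfi1 and Lhx3 gave no value, and Barhl1 gave one only with no filter. Fits without treated library 1 or 2 keep the other of the near-identical pair.

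Of the 1348 genes of the first table, 692 were called, and 103 to 611 on leaving out single libraries: 118, 145 and 103 without WT libraries 1, 2 and 3, and 183 without homozygous library 1. Of Gata2 and Eya1, 1 was called, 1 to 1 on leaving out single libraries and 2 under median-of-ratios scaling, where Eya1 was at 0.46.

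Same-numbered libraries did not deviate together (the first table gave correlations of deviations of 0.049, -0.14 and -0.074, the second 0.03, -0.146 and -0.117). Differently numbered libraries gave values of similar size, such as -0.136 and 0.164 in the first table. The main fits therefore did not pair samples by number. With 3 libraries per group, these values cannot exclude a pairing. A fit with the replicate number as a block called 343 genes in the first table and, with 3 treated samples, 1485 in the second, where it called 0 of the 9 genes and gave Gata2 0.855 (limma adjusted p = 0.0561). The cause of these changes was not tested. Depth is unknown, so no limit of detection can be given for Lhx3 and Barhl1.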

Other observations

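Among the other otic regulators, some had groups that did not overlap without passing the test; they were chosen here after their values were seen. Six2, a homeodomain factor, was at 60.3, 59.3 and 74.4 TPM in treated libraries and 22.0, 38.9 and 21.5 TPM in homozygous libraries (log2 fold change 1.30, limma adjusted p = 0.0639). Tbx2, a T-box factor of inner hair cells, was at 75.6, 75.0 and 103 TPM in treated libraries and 32.3, 50.6 and 42.2 TPM in homozygous libraries (log2 fold change 1.09, limma adjusted p = 0.0644). Pax2, a paired-box factor of the otic epithelium, was at 11.7, 12.5 and 25.0 TPM in treated libraries and 5.001, 9.003 and 3.42 TPM in homozygous libraries (log2 fold change 1.52, limma adjusted p = 0.119). Prox1, a homeodomain factor of supporting cells, was lower, at 28.3, 28.7 and 19.9 TPM in treated libraries and 57.1, 35.3 and 71.4 TPM in homozygous libraries (log2 fold change -1.10, limma adjusted p = 0.106).

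The lymphocyte genes Ikzf1 and Ikzf3, paralogs of Ikzf2, also had groups that did not overlap. Ikzf1 was at 19.0, 20.7 and 15.8 TPM in treated libraries and 3.28, 12.9 and 5.68 TPM in homozygous libraries (log2 fold change 1.35, limma adjusted p = 0.169). Ikzf3 was at 9.39, 9.21 and 8.79 TPM in treated libraries and 1.77, 2.44 and 0.124 TPM in homozygous libraries (log2 fold change 2.19, limma adjusted p = 0.0735). T cell marker sums, given above, were higher in the same libraries, and their part in these values was not tested.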
